A study of Homo sapiens with 3 samples.

Results

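Peaks of the transcription factor MEIS1 that lie in retroviral long terminal repeat (LTR) elements were described in 2 prostate cancer cell lines. The members were the peaks whose detailed annotation gave an element name, the class LTR and a family, and peaks in internal ERVL-MaLR sequence were left out. This rule took 252 of the 5968 peaks of the LV-MEIS1 list and 263 of the 2047 peaks of the HOXB13ko-LV-MEIS1 list, 515 of 8015 in all. It left out 1 internal ERVL-MaLR peak in the first list and 251 in the second.

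Both lines derive from CWR22Rv1 (22Rv1), an established human prostate carcinoma line. LV-MEIS1 cells expressed MEIS1 from a lentiviral vector and kept HOXB13, a homeobox factor of the prostate. HOXB13ko-LV-MEIS1 cells carried the same vector after CRISPR deletion of HOXB13 and came from a pool of recombined clones. Each line gave 1 list, called on pooled immunoprecipitations (3 for LV-MEIS1 and 2 for HOXB13ko-LV-MEIS1) against the same input of 39102495 tags. The pools held 202428594 and 105763683 tags. Peaks are numbered without gaps in both lists, but the study describes more LV-MEIS1 peaks than the list analysed here, so counts and overlaps refer to these lists alone. With 1 list per line there was no replicate error, so no test between the lines was made, and the intervals below cover counting error only. In these lists a gain or loss of peaks with HOXB13 cannot be told apart from the difference in depth or pool. The question of the design was which MEIS1 binding depends on HOXB13.

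LTR elements are remnants of retroviruses that entered the germ line. An intact provirus has an internal part with the viral genes between a pair of LTRs, and recombination often leaves a solitary LTR, which holds the former viral promoter. RepeatMasker names the internal part with the ending -int and sorts elements into families (ERV1, ERVL, ERVK, ERVL-MaLR). Copies of an element descend from the same ancestor and so share sequence. MEIS proteins are TALE homeodomain factors, and their core word is TGACA. HOX partners of the posterior type, HOXB13 among them, favour an ATAAA core, and TGATTTAT is a word of PBX and HOX proteins together.

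The sequences that carry the main patterns are given here, in hg38 and 5′ to 3′, so that the values can be read beside them. In the internal sequence of HERVK11, an ERVK provirus, all 5 LV-MEIS1 peaks and all 4 HOXB13ko-LV-MEIS1 peaks held TGATTTAT near the summit, shown in capitals, and none held TGACA.
HERVK11-int nearest LINC01243, chr9:31776603-31776650, + strand: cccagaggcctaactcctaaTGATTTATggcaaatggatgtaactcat
HERVK11-int nearest TECRL, chr4:64145193-64145240, - strand: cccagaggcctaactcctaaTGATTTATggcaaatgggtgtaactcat
HERVK11-int nearest KCCAT198, chr12:105310589-105310636, + strand: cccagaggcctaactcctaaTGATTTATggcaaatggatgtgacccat
HERVK11-int nearest TULP4, chr6:158300750-158300797, - strand: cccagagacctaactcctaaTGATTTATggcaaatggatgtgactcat
HERVK11-int nearest LINC01699, chr1:181251219-181251266, + strand: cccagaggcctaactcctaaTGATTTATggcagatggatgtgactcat

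LTR10, an ERV1 group with some copies known to hold p53 binding sites, gave the most HOXB13ko-LV-MEIS1 peaks of any group. The capitals mark the commonest 12-base word at its summits, a word chosen after the sequences were seen. The 5 copies shown have the highest fold enrichment among those with the word.
LTR10B1 nearest CHD6, chr20:41600024-41600075, + strand: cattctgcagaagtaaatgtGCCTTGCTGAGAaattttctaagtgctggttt
LTR10E nearest LOC100131347, chr17:39047173-39047224, + strand: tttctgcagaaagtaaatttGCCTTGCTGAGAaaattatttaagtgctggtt
LTR10E nearest DESI2, chr1:244576402-244576453, - strand: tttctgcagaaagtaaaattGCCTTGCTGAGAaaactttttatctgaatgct
LTR10E nearest TMCC1-AS1, chr3:129917588-129917639, + strand: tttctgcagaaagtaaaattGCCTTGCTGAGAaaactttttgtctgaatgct
LTR10E nearest TMEM89, chr3:48617733-48617784, - strand: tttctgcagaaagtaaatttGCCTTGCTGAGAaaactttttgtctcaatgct

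LTR18, the LTR of an ERVL provirus, was the next largest group of the HOXB13ko-LV-MEIS1 list. The capitals mark TGAGTCA, the consensus word of AP-1 (FOS and JUN), which was also chosen after the sequences were seen. The copies shown are the LTR18A copies with the highest fold enrichment among those with the word. The highest LTR18 peak, nearest UCHL1 (fold enrichment 13.4), is not among those with the word.
LTR18A nearest LINC02198, chr5:68933026-68933076, + strand: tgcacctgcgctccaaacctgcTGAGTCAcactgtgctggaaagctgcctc
LTR18A nearest MIR582, chr5:59713275-59713325, - strand: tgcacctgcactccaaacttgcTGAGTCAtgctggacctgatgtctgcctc
LTR18A nearest MIR4735, chr1:196535896-196535946, + strand: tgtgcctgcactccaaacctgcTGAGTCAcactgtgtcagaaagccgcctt
LTR18A nearest C1orf21, chr1:184290292-184290342, - strand: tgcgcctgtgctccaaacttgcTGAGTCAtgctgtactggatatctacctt

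LTR peaks made up 4.22% of the LV-MEIS1 list (95% Wilson interval 3.74 to 4.76%) and 12.8% of the HOXB13ko-LV-MEIS1 list (11.5 to 14.4%). By number the lists held nearly as many LTR peaks, although the second list was the shorter and the less deeply sequenced. The elements behind the counts were largely different. LV-MEIS1 peaks fell in 137 element names and HOXB13ko-LV-MEIS1 peaks in 59, with 25 names in both. The shared names covered 19.8% of the LV-MEIS1 members and 25.9% of the HOXB13ko-LV-MEIS1 members.

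ERV1 was the largest family in both lists. It held 124 LV-MEIS1 peaks, 49.2% of the members (43.1 to 55.3%), and 165 HOXB13ko-LV-MEIS1 peaks, 62.7% (56.7 to 68.4%). Within ERV1, internal sequence carried 25 LV-MEIS1 and 64 HOXB13ko-LV-MEIS1 peaks. ERVL held 59 and 47 peaks, and ERVK 23 and 37. ERVL-MaLR LTRs held 35 LV-MEIS1 peaks and 5 HOXB13ko-LV-MEIS1 peaks. Gypsy elements gave 2 and 7 peaks, and 6 LV-MEIS1 peaks lay in LTR106_Mam, whose family is given only as LTR. The remaining members had a family marked as uncertain.

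In LV-MEIS1 cells the peaks were spread thinly over many elements. Of the 137 names, 85 had a single peak, and the 9 names with 5 or more peaks held 59 peaks, 23.4% of the members. MLT1, an ERVL-MaLR group of LTRs, had the most peaks with 31 in 17 names. It was followed by LTR9 with 16, MER66 and LTR40 with 11 each, and LTR22 with 9. In HOXB13ko-LV-MEIS1 cells the peaks were concentrated. There, 18 names with 5 or more peaks held 187 peaks, 71.1% of the members, and LTR10 and LTR18 together held 110, 41.8%.

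LTR10 had 69 HOXB13ko-LV-MEIS1 peaks (LTR10E 17, LTR10B1 13, LTR10A 10, LTR10C 9, LTR10G 8, LTR10B2 7, LTR10B 4 and LTR10F 1) and 0 LV-MEIS1 peaks. LTR18 had 41 (LTR18A 26, LTR18B 8 and LTR18C 7) and 0. MER11, the LTR group that belongs to HERVK11, had 13 and 0, LTR25-int 12 and 0, HUERS-P3-int 11 and 0, and MER41-int 10 and 0. LTR13 and LTR76 each had 11 HOXB13ko-LV-MEIS1 peaks and 1 LV-MEIS1 peak. In the other direction MLT1 had 3 HOXB13ko-LV-MEIS1 peaks, and the LTRs LTR9, MER66 and LTR40 had 0, while MER66-int, the internal sequence, had 1. Of the 16 elements on the list that was fixed with the design, LTR7, LTR5 and THE1 had no member in either list, LTR12 had 4, HERVH 2 and MER61 1 in LV-MEIS1 only, and LTR2 had 2 in HOXB13ko-LV-MEIS1 only. MER41 LTRs (MER41B) had 3 LV-MEIS1 peaks and 0 HOXB13ko-LV-MEIS1 peaks, LTR8 had 1 and 6, and MER52 had 4 and 5. The number of copies of each element in the genome was not counted here, so these counts are not enrichments of an element.

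**Figure D1:**
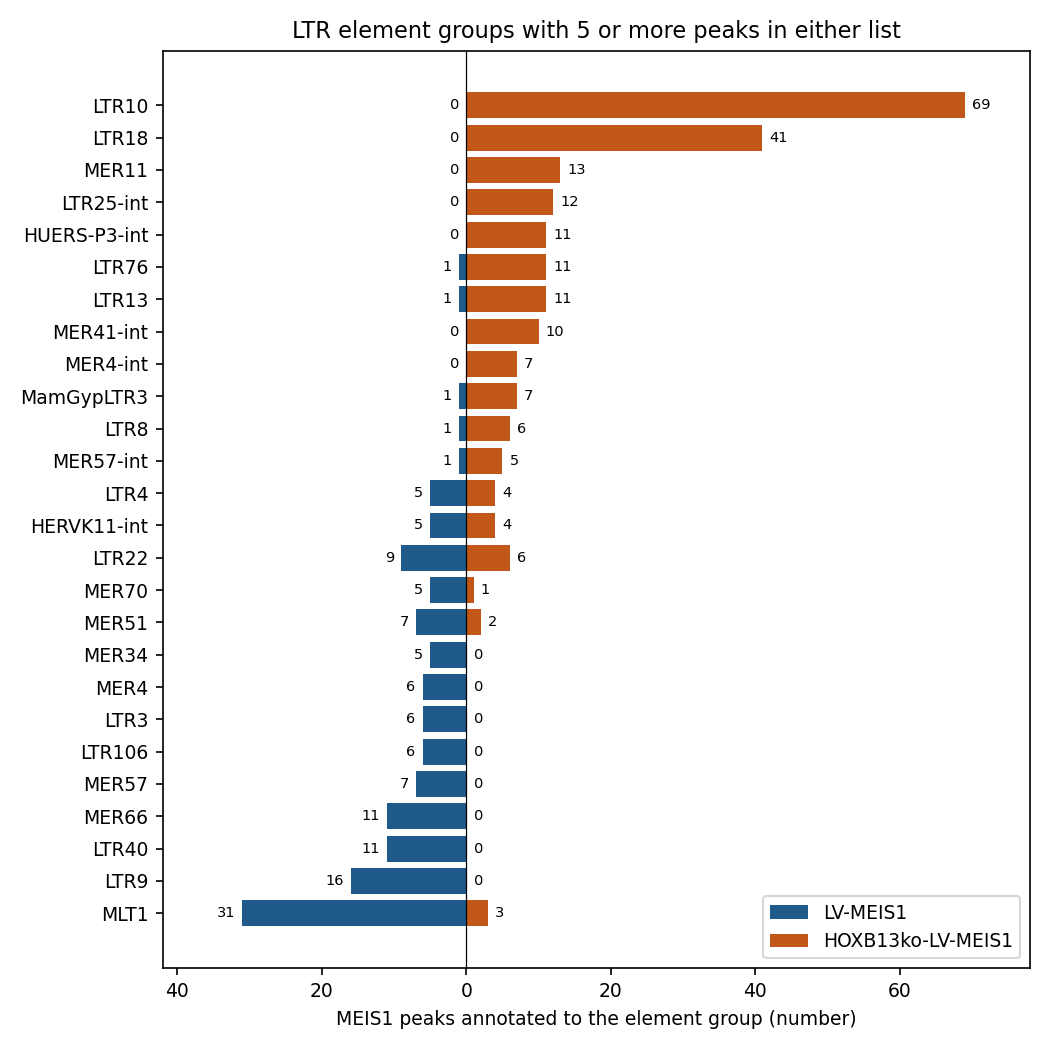
Number of MEIS1 peaks (horizontal axis) in each LTR element group with 5 or more peaks in either list, with LV-MEIS1 to the left of 0 and HOXB13ko-LV-MEIS1 to the right. LTR10 and LTR18 stand out on the right with 69 and 41 peaks against 0, and MLT1 on the left with 31 against 3.

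Fold enrichment is the height of the read pileup at the summit over the local background, with 1 added to both. It is given with its percentile within the list, since pools of unequal depth were scaled to the same input and values of the lists are not on a common footing. LV-MEIS1 members had a median fold enrichment of 6.38 (quartiles 5.36 and 7.85) against 6.16 for the rest of that list, and lay at a median percentile of 54.1. HOXB13ko-LV-MEIS1 members had a median of 6.90 (quartiles 5.88 and 8.33) against 5.67 for the rest, at a median percentile of 70.9. Internal ERVL-MaLR peaks of the same list had a median of 6.52. The background under members was close to that under other peaks, with medians of 3.20 and 3.34 in LV-MEIS1 and 3.04 and 3.22 in HOXB13ko-LV-MEIS1. A background of 2.90 recurred among the highest members, such as those nearest HNRNPL, IL15 and UCHL1. Medians near that value therefore say little about local differences in background.

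Among ERV1, ERVL, ERVK and ERVL-MaLR, ERVK had the highest median in LV-MEIS1 (7.97, n = 23), followed by ERVL (6.65), ERVL-MaLR (6.20) and ERV1 (6.11). In HOXB13ko-LV-MEIS1, ERVL led with 7.85 (n = 47), followed by ERVK (6.71), ERV1 (6.66) and ERVL-MaLR (5.27, n = 5). The other families, each of 7 peaks or fewer, had medians of 5.74 to 7.62 in LV-MEIS1 and of 6.02 and 7.46 in HOXB13ko-LV-MEIS1. The ranges overlapped widely in both lists. The ERVL median of HOXB13ko-LV-MEIS1 equalled that of LTR18, which supplied 41 of its 47 peaks and ranged from 4.75 to 13.4. The LTR10 peaks ranged from 4.71 to 12.9 with a median of 7.47, and LTR10E was the highest of its larger subgroups at 8.94.

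**Figure D2:**
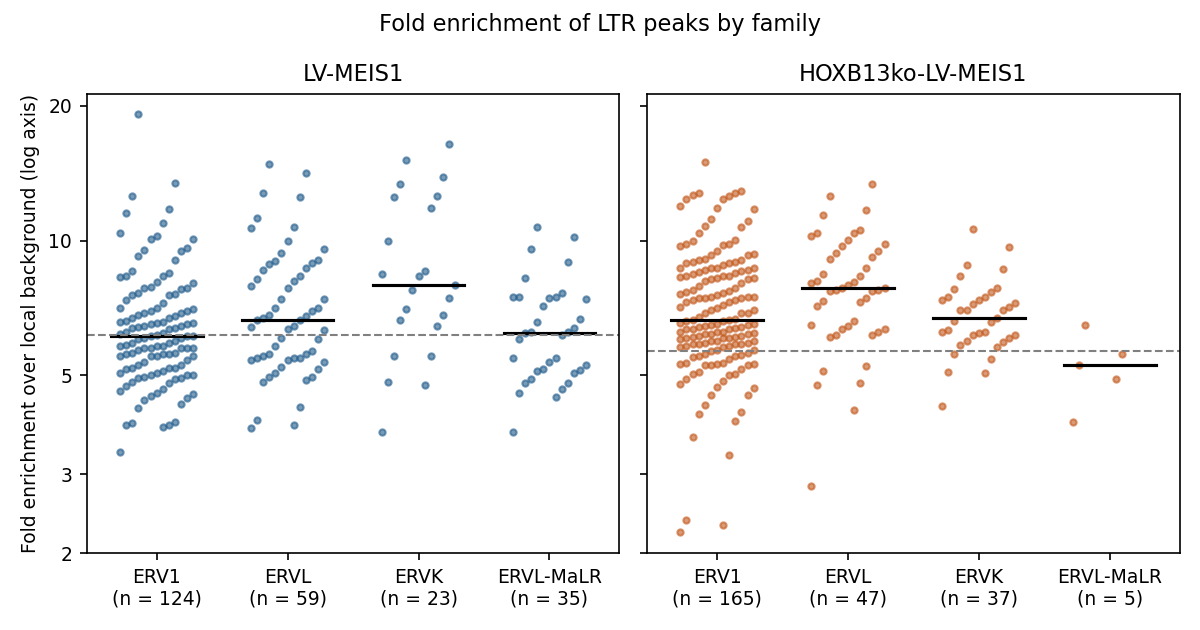
Fold enrichment over local background (vertical log axis) of each LTR peak by family, 1 panel per list, with black bars at the medians and a dashed line at the median of all other peaks of that list. The families overlap, and in HOXB13ko-LV-MEIS1 the medians of ERV1, ERVL and ERVK lie above the dashed line at 5.67.

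The peak with the highest fold enrichment of the whole LV-MEIS1 list was an LTR peak. It lay in LTR35A, 10445 bp upstream of the nearest start site, that of HNRNPL, which encodes a splicing regulator. Its fold enrichment was 19.1 in LV-MEIS1 and 12.8 (percentile 98.0) in HOXB13ko-LV-MEIS1, with summits 1 bp apart. The 61 bases around the summit hold neither TGACA nor ATAAA.
LTR35A upstream of HNRNPL, chr19:38862754-38862814, + strand: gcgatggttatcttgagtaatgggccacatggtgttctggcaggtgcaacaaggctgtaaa

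The other LV-MEIS1 members with the highest fold enrichment were 3 HERVK11-int peaks (16.4, 15.1 and 13.9), MER68 nearest IL15, a cytokine gene (14.8), MER70B nearest LINC01736 (14.1), LTR106_Mam nearest DAD1, which encodes an oligosaccharyltransferase subunit (14.1), MER89 nearest LINC00907 (13.5), LTR22B in an intron of ANKRD30A (13.4) and LTR40a in an intron of KLKP1, a kallikrein pseudogene (12.7). Of these 10 peaks, 6 had a peak at the same place in the other list.

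In HOXB13ko-LV-MEIS1 the highest member was HUERS-P3-int nearest LOC730338 (15.0). It was followed by LTR18A nearest UCHL1, a ubiquitin hydrolase gene (13.4), LTR10B1 in the first intron of CHD6, a chromatin remodeller gene (12.9), and the LTR35A peak near HNRNPL (12.8). Next came LTR10E nearest LOC100131347 (12.8), DESI2 (12.6) and TMCC1-AS1 (12.6), LTR18A nearest LINC02198 (12.6), HUERS-P3-int nearest NRIR, a non-coding RNA of the interferon response (12.4), and LTR25-int in an intron of TXNL4A, a spliceosome gene (12.4). Here 1 of the 10 peaks, that near HNRNPL, had a peak at the same place in the other list.

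Of the LV-MEIS1 members, 23 overlapped a HOXB13ko-LV-MEIS1 peak by at least 1 bp, or 9.13% (6.16 to 13.3%), and of all peaks in that list 7.66% did. Of the HOXB13ko-LV-MEIS1 members, 19 overlapped an LV-MEIS1 peak, or 7.22% (4.67 to 11.0%), and of all peaks in that list 22.3% did. Of the 777 HOXB13ko-LV-MEIS1 peaks in introns or between genes that were in no LTR element, 256 overlapped, or 32.9%, and of its 251 internal ERVL-MaLR peaks 0 did (upper Wilson limit 1.51%). The LTR peaks of HOXB13ko-LV-MEIS1 cells thus overlapped the other list at a lower share than its peaks in general, as did the internal ERVL-MaLR peaks, whereas those of LV-MEIS1 cells lay close to their list's share.

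At 18 places both peaks were members, and at all 18 the element name was the same. The summits were 0 to 33 bp apart, and at 17 places within 25 bp. These places stood high in the LV-MEIS1 list, with a median percentile of 94.0 against 49.7 for the LV-MEIS1 members with no overlap. In HOXB13ko-LV-MEIS1 their median percentile was 71.2. The percentile was higher in LV-MEIS1 at 16 of the 18 places. The exceptions were MER77B nearest LINC01133 (82.0 and 90.9) and ERVL-B4-int nearest PTGER4, a prostaglandin receptor gene (79.8 and 82.7). These percentiles were not computed for all 457 overlapping peaks of the LV-MEIS1 list, so they cannot be called particular to LTR places.

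HERVK11-int supplied 4 of the 18 places. Fold enrichment there was 16.4 in LV-MEIS1 and 10.6 in HOXB13ko-LV-MEIS1 nearest LINC01243, 15.1 and 9.65 nearest TECRL, 13.9 and 7.81 nearest KCCAT198, and 8.41 and 7.24 nearest LINC01699. The fifth copy, 11874 bp upstream of TULP4, had a fold enrichment of 12.6 in LV-MEIS1 and no peak in the other list. The windows around the 5 summits were alike, with a median identity of 94.6% between pairs (92.1 to 98.0%). TGATTTAT was also at the shared summits in MER89 nearest LINC00907 (13.5 and 8.56) and MER77B nearest LINC01133 (8.58 and 9.49), elements of other families, so that 6 of the 18 places held it. TGACA was at 8 of the other 12.
MER89 nearest LINC00907, chr18:42644835-42644882, - strand: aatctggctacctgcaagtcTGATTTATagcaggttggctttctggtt
MER77B nearest LINC01133, chr1:159971166-159971213, - strand: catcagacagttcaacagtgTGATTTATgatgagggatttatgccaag
MER70B nearest LINC01736, with TGACA in capitals, chr1:229844807-229844867, + strand: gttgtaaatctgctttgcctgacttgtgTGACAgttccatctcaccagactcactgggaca

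The remaining places in both lists were MER70B nearest LINC01736 (14.1 and 10.6), MER51E nearest CCZ1P-OR7E38P (12.6 and 6.66), LTR22B nearest SLC7A5P2 (11.8 and 6.21) and SMG1P2 (8.31 and 4.27), MER67C nearest LINC00564 (11.8 and 5.08), MER51A nearest LOC101928068 (10.4 and 5.78), MER110A nearest LOC400655 (10.1 and 5.95), LTR4 nearest RNVU1-18 (8.34 and 3.63), MSTB1 nearest HERC6 (7.47 and 3.93) and MLT1E nearest LINC00448 (7.15 and 5.27). A further 5 LV-MEIS1 members overlapped a HOXB13ko-LV-MEIS1 peak with another annotation, and 3 of these were LTR4 copies whose summits were 271 to 279 bp apart.

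**Figure D3:**
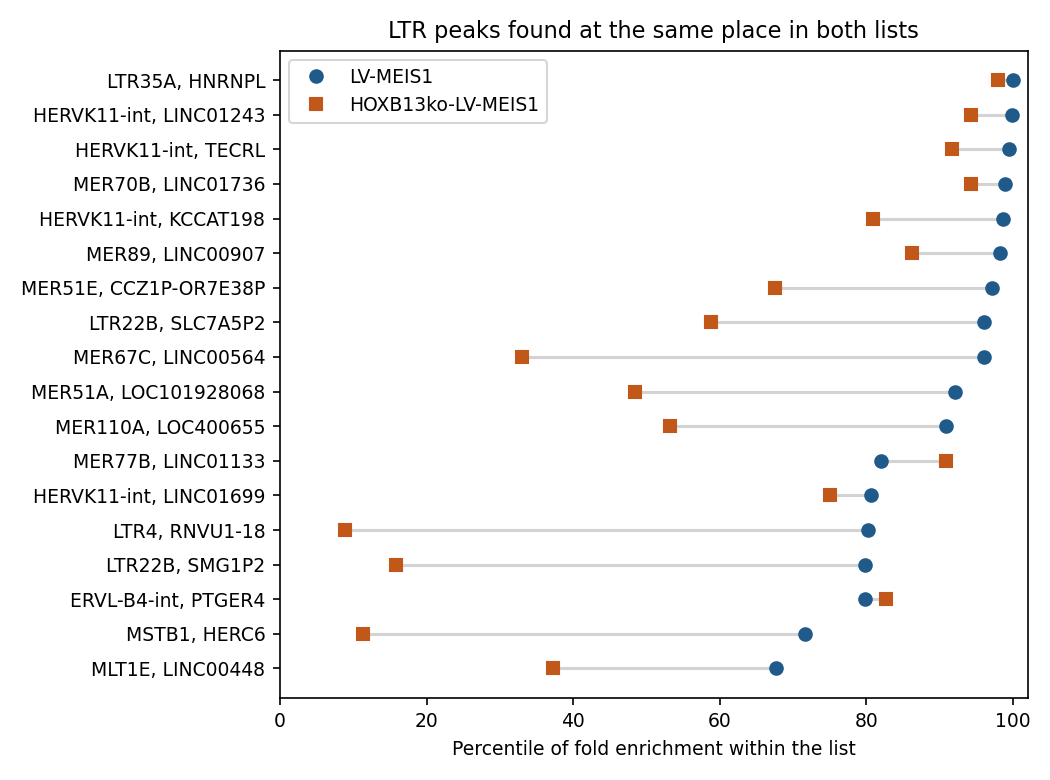
Percentile of fold enrichment within the list (horizontal axis) for the 18 LTR peaks found at the same place in both lists, with circles for LV-MEIS1 and squares for HOXB13ko-LV-MEIS1. The circle lies to the right at 16 places, and LTR35A near HNRNPL is high in both lists.

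LTR40a, an ERVL LTR, held 3 LV-MEIS1 peaks at the kallikrein locus. KLK3 encodes prostate-specific antigen and KLK2 a related prostate protease. LTR40a peaks lay 4037 bp upstream of KLK3 (fold enrichment 9.03, percentile 85.3), 3779 bp upstream of KLK2 (6.65, percentile 59.4) and within KLKP1 (12.7, percentile 97.5). They were 3 of the 9 LTR40a peaks of the list, and all lay in sequence found once in hg38. The deposited annotation placed the KLK3 peak in an intron of a non-coding transcript and the KLK2 peak between genes, and GENCODE release 44 placed the latter in an intron of KLK2. A HOXB13ko-LV-MEIS1 peak (5.10, percentile 33.7) overlapped the KLK3 peak with its summit 136 bp away and was annotated to an exon of a non-coding transcript. The KLK2 and KLKP1 peaks had no counterpart in the other list. KLK3 was on the fixed gene list, whereas KLK2 was chosen after its values were seen. The summits near KLK3 and KLK2 share a stretch with the forkhead word TGTTTAC, and only the KLK3 copy has TGACAG beside it. The 61 bases around the KLKP1 summit hold neither TGTTTAC nor TGACAG, and TGTTTAC was at 2 of the 11 LTR40 summits. Capitals mark both words on either strand.
LTR40a upstream of KLK3, chr19:50850848-50850908, + strand: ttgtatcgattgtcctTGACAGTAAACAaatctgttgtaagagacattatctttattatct
LTR40a upstream of KLK2, chr19:50869624-50869684, + strand: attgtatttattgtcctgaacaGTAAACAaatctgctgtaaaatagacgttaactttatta

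Within 10 kb of a start site lay 51 LV-MEIS1 members, 20.3% against 38.1% of all peaks with a distance. In HOXB13ko-LV-MEIS1 it was 50 members, 19.1% against 49.4%. Of the 21 genes on the fixed list, KLK3 was nearest to an LV-MEIS1 member and ITPR2, an inositol trisphosphate receptor gene, to a HOXB13ko-LV-MEIS1 member (MER41-int in an intron, 77639 bp from the start site, fold enrichment 6.12, percentile 56.3). No member was nearest to MEIS1, HOXB13, DCN or TMPRSS2. A single member of either list lay within 1 kb of a start site, LTR57-int in LV-MEIS1, 652 bp downstream of that of RDH12, a retinol dehydrogenase gene (fold enrichment 6.80). HOMER lets promoter and exon labels override repeats, so LTR peaks at promoters are not members. The median distance to the nearest start site was 36060 bp for LV-MEIS1 members against 22665 bp for the rest, and 28678 bp for HOXB13ko-LV-MEIS1 members against 6695 bp. The rest held 1418 LV-MEIS1 and 653 HOXB13ko-LV-MEIS1 peaks within 1 kb of a start site, which these labels largely keep out of the members. Internal ERVL-MaLR peaks of HOXB13ko-LV-MEIS1 had a median distance of 45251 bp. Beyond 100 kb lay 66 LV-MEIS1 members, 26.3% against 21.7% of all peaks with a distance. In HOXB13ko-LV-MEIS1 it was 59 members, 22.5% against 11.9%. Introns held 79 LV-MEIS1 and 92 HOXB13ko-LV-MEIS1 members, and 172 and 170 lay between genes.

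TGACA stood within 50 bp of the summit in 145 of 252 LV-MEIS1 members, 57.5% (51.4 to 63.5%), against 56.1% of all peaks in that list. In windows of the same width centred 500 bp to either side it stood in 46 and 48 members, a mean of 18.7%. The summit share was above the flanks in an exact two-sided binomial test on the members with the word in 1 of the 2 windows (121 at the summit only, 22 in the flank only, p = 9.25e-18 and adjusted p = 1.85e-17 over both lists). Copies of an element share sequence, so its peaks are not independent. With 1 peak per element name the shares were 60.6% and 19.7% of 137 peaks (p = 1.05e-10 by the same exact test).

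In HOXB13ko-LV-MEIS1, TGACA stood at 63 of 263 summits, 24.0% (19.2 to 29.5%), against 16.8% of all peaks in that list. The flanks held it in 50 and 42 members, a mean of 17.5%, and the exact binomial test gave p = 0.203 (51 summit only, 38 flank only). The summit share was thus 6.46 percentage points above the mean of both flanks. Each exact p belongs to the single flank with the larger p, so it does not test that mean difference. Leaving out each of the 8 groups with 10 or more peaks in turn gave a difference from 3.57 points without LTR13 (exact p = 0.738) to 9.54 points without LTR10 (exact p = 0.0385), and the latter was the only one of these with p under 0.05. With 1 peak per element name it was 11.0 points (exact p = 0.845, n = 59), and with windows of 100 bp to either side 0.57 points (exact p = 0.721). Internal ERVL-MaLR peaks, left out here, held TGACA at 2.39% of summits. The longer word TGACAG stood at 27.4% of LV-MEIS1 and 3.80% of HOXB13ko-LV-MEIS1 member summits, with 6.15% and 4.75% in the flanks, against 30.4% and 7.82% of all peaks in these lists.

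The word was unevenly spread over elements in both lists. In LV-MEIS1 it was at all 11 MER66 summits, 22 of 31 MLT1 summits and 0 of 5 HERVK11-int summits. There it was also at all 5 LTR4 summits, 2 of them mostly in sequence found once in hg38. In HOXB13ko-LV-MEIS1 it was at 10 of 11 LTR13 summits and 6 of 7 MamGypLTR3 summits, at 9 of 69 LTR10 and 14 of 41 LTR18 summits, and at none of the 13 MER11, 11 LTR76, 10 MER41-int, 6 LTR8 and 6 LTR22 summits. The LTR13 copies carry it, read on the opposite strand as TGTCA, inside their commonest 12-base word, shown in capitals.
LTR13 nearest ZNF92, chr7:65447194-65447245, - strand: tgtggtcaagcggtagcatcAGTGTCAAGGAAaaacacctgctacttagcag
LTR13 nearest RHOT1, chr17:32135645-32135696, - strand: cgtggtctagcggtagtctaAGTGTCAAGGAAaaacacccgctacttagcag
LTR13 nearest B4GALNT4, chr11:361973-362024, - strand: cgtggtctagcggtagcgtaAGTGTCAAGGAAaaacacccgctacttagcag

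The MER66 peaks of LV-MEIS1 included near copies on chromosome 1, shown here with TGACA and its reverse complement in capitals beside a diverged MER66B copy. The MER66C copies lay in duplicated sequence, where a median of 33.6% of 50-base stretches around the summit occur once in hg38.
MER66C nearest LOC103091866, chr1:145182807-145182861, + strand: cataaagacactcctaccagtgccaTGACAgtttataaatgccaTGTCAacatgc
MER66C nearest RNVU1-4, chr1:120995166-120995220, - strand: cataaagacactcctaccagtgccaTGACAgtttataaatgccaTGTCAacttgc
MER66B nearest C6orf222, chr6:36346202-36346256, - strand: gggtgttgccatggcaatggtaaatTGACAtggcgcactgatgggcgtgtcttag

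**Figure D4:**
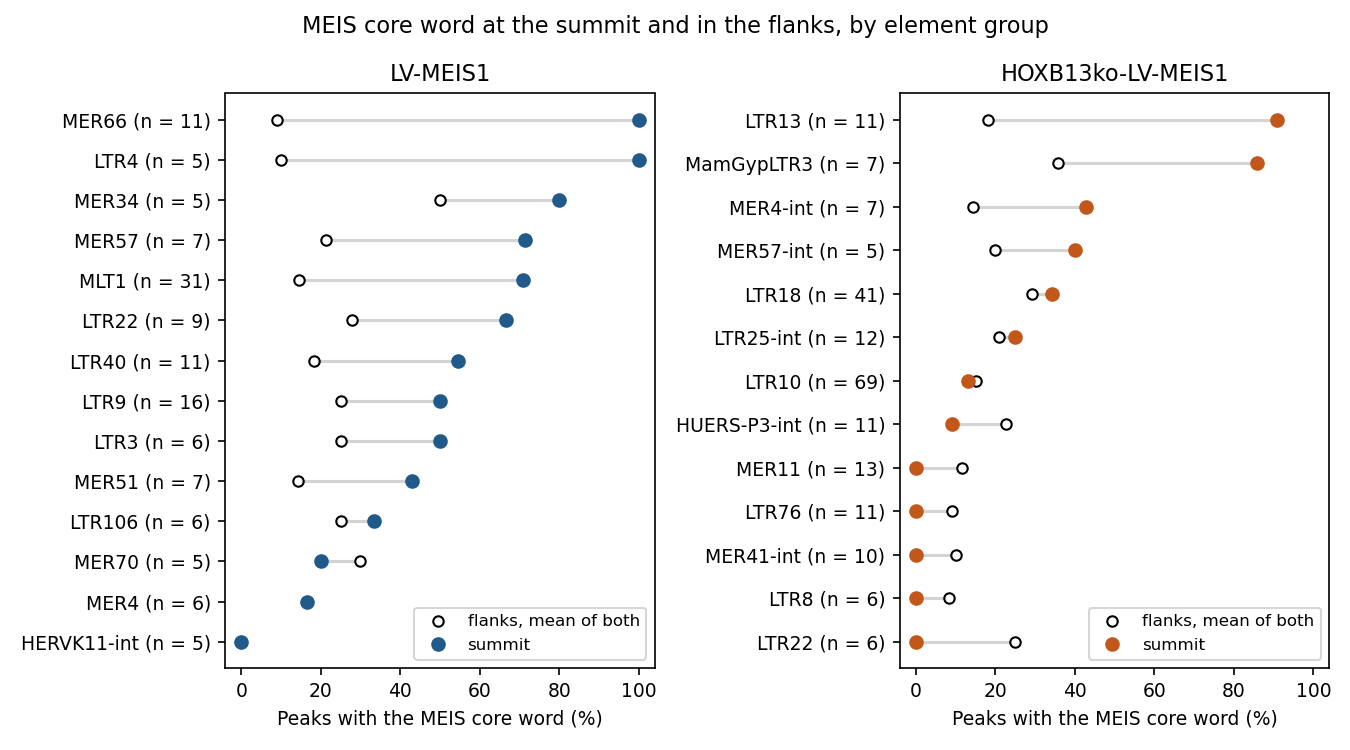
Percentage of peaks with the MEIS core word within 50 bp of the summit (filled) and in the flanks 500 bp away (open, mean of both), for element groups with 5 or more peaks, 1 panel per list. Most LV-MEIS1 groups lie to the right of their flanks, and in HOXB13ko-LV-MEIS1 LTR13 and MamGypLTR3 do so most, while 5 groups have the word at 0 summits.

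The other words followed their own pattern and were given no test. ATAAA was at 51.6% of LV-MEIS1 member summits (flanks 29.8%, all peaks 45.8%) and at 28.9% of HOXB13ko-LV-MEIS1 member summits (flanks 36.3%, all peaks 13%). TGATTTAT was at 24 LV-MEIS1 members, 9.52% (flanks 0.198%, all peaks 7.77%), among them the 5 HERVK11-int and 4 of 6 LTR3 peaks. It was at 7 HOXB13ko-LV-MEIS1 members, 2.66% (flanks 0.760%, all peaks 2.15%), and 4 of these were HERVK11-int. TGTTTAC was at 12.3% of LV-MEIS1 members (flanks 1.39%, all peaks 8.71%) and 4.18% of HOXB13ko-LV-MEIS1 members (flanks 1.52%, all peaks 2.3%). A PBX-MEIS composite word was at no member of either list. It was at 47 other peaks of LV-MEIS1, 0.822%, and at 7 other peaks of HOXB13ko-LV-MEIS1, 0.392%. Both shares lie within the Wilson intervals of the members, so the absence of this word does not set the members apart. Neither TGACA nor TGATTTAT was found, and neither TGTTTAC nor ATAAA, at 16.7% of LV-MEIS1 and 48.3% of HOXB13ko-LV-MEIS1 member summits, against 20.7% and 77.1% of the other peaks of these lists.

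TGAGTCA, the AP-1 word shown in the LTR18 copies above, was at 32 HOXB13ko-LV-MEIS1 members, 12.2% (flanks 1.90%, all peaks 1.95%), and at 8 of the 1784 other peaks of that list, 0.448%. LTR18 supplied 29 of the 32, which was 29 of its 41 peaks, with 0 and 1 in its flanks. The word was chosen after these summits were seen and LTR18 copies share sequence. Its counts in flanks and other peaks are therefore no test. In LV-MEIS1, 12 members held it, 4.76% (flanks 1.39%, all peaks 2.33%), of which 5 were LTR22 and 2 HERVK11-int peaks.

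The summits of HOXB13ko-LV-MEIS1 peaks shared words with their element group. The commonest 12-base word of LTR10 was at 60 of its 69 summits. It was picked from these summit windows, so its 0 flank counts are no test of its place. Its centre lay a median of 12.5 bp downstream of the summit (quartiles 8.5 and 19.5 bp) in the orientation printed above. It occurs 1353 times in chromosomes 1 to 22, X and Y, whatever the annotation, and 63 of these places, 4.66%, lay within 50 bp of a HOXB13ko-LV-MEIS1 summit and 0 within 50 bp of an LV-MEIS1 summit. The word was at 4 further HOXB13ko-LV-MEIS1 summits outside the members. These were 679 bp from the start site of FAAH (fold enrichment 9.13), 234 bp from that of ZNF561-AS1 (7.66), and at transcript ends nearest SMYD3 (10.7) and MIR3175 (9.93). Their deposited labels name genes, and whether LTR10 sequence lies under these summits was not tested.

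LTR76 had its commonest word at 9 of 11 summits, a median of 0.5 bp away, with all 9 within 25 bp. MER11 had its own at 8 of 13 (median 3.5 bp) and LTR18 at 16 of 41 (median 2 bp, all 16 within 25 bp). LTR13 was less even, with 8 of 11 and quartiles of 2.75 and 29 bp. In LV-MEIS1 the commonest word of the group was at all 5 HERVK11-int and all 5 LTR4 summits, at 6 of 11 MER66, 5 of 16 LTR9 and 2 of 31 MLT1 summits. Over groups with 5 or more peaks the share with the word ran from 6.45 to 100% in LV-MEIS1 and from 36.4% (HUERS-P3-int) to 87.0% (LTR10) in HOXB13ko-LV-MEIS1, so the ranges overlapped. Over names with 5 or more peaks, the median identity of the 101 bp windows was 77.2% in HOXB13ko-LV-MEIS1 (1080 pairs in 18 names) and 64.4% in LV-MEIS1 (174 pairs in 9 names). By name it ran from 56.9% (MER4-int) to 98.0% (MamGypLTR3) in HOXB13ko-LV-MEIS1, with 78.2% for LTR10E and 75.2% for LTR18A. In LV-MEIS1 it ran from 55.4% (MLT1I) to 94.6% (HERVK11-int), with 56.4% for LTR40a, 86.1% for LTR22B and 94.1% for LTR4. LTR76 copies with the word in capitals are given for comparison.
LTR76 nearest PI4K2B, chr4:25223919-25223970, - strand: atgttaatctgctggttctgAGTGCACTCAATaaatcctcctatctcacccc
LTR76 nearest CLTCL1, chr22:19316879-19316930, + strand: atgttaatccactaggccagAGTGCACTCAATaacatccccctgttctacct

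**Figure D5:**
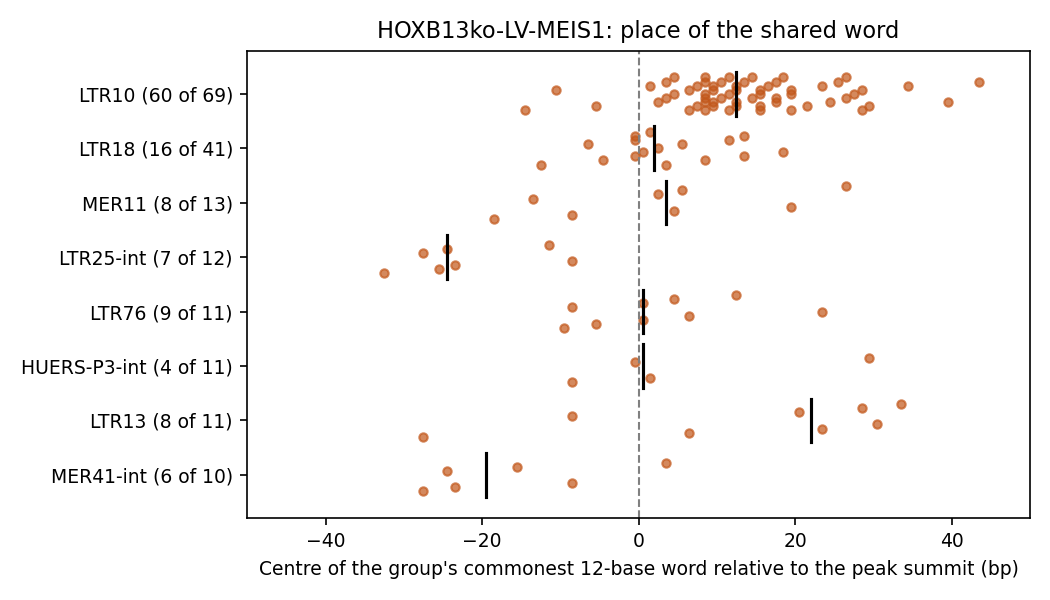
Distance of the centre of each group's commonest 12-base word from the peak summit (horizontal axis, bp, in the orientation of the word) for the HOXB13ko-LV-MEIS1 groups with 10 or more peaks, 1 point per peak with the word and black bars at the medians. The 60 LTR10 points gather around 12.5 bp and the 9 LTR76 points around 0.5 bp, whereas LTR13 is wider.

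Some internal ERV1 groups shared words across element names. Some LTR25-int and HUERS-P3-int peaks of HOXB13ko-LV-MEIS1 held a similar stretch, shown in 4 copies with each group's commonest word in capitals. The LTR25-int word was at 7 of 12 of its own summits and at 2 summits of other members. The HUERS-P3-int word was at 4 of 11 of its own summits and at 2 summits of other members.
LTR25-int nearest KHDRBS2, chr6:62652827-62652878, + strand: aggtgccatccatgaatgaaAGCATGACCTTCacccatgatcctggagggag
LTR25-int nearest TP53TG1, chr7:87328461-87328512, + strand: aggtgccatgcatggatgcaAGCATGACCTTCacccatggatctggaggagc
HUERS-P3-int nearest LOC730338, chr7:46468935-46468986, + strand: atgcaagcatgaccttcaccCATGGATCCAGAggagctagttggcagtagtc
HUERS-P3-int nearest NRIR, chr2:6845517-6845568, + strand: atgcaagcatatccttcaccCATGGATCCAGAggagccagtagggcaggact

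A second stretch joined 5 other internal groups. ACTTACACAGAC was at 9 HOXB13ko-LV-MEIS1 members (MER57-int 3, MER4-int 2, MER51-int 2, LOR1-int 1 and MER41-int 1), at no other peak of that list and at 0 LV-MEIS1 peaks. Fold enrichment of the copies shown was 6.35 and 6.17.
MER57-int nearest ARRDC3, chr5:91591257-91591308, + strand: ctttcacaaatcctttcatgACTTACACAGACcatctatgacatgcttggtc
MER4-int nearest ARSA, chr22:50648890-50648941, - strand: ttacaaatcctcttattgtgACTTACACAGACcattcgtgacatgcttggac

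Reads of 50 bases from a repeat can align equally well to several copies, and Bowtie2 then places them on any of these. At least 50% of the 50-base stretches around the summit occurred once in hg38 for 230 LV-MEIS1 members, 91.3%, and 245 HOXB13ko-LV-MEIS1 members, 93.2%, against 95.7% and 82.2% of the other peaks. LTR10 met this at 67 of 69 peaks and LTR18 at all 41. LTR4 met it at 2 of 5 LV-MEIS1 and 4 of 4 HOXB13ko-LV-MEIS1 peaks, and LTR22B at 4 of 6 and 0 of 2. The LTR4 peaks of LV-MEIS1 nearest PPIAL4E and PPIAL4D, the latter on an alternate chromosome 1 sequence, had 0% of stretches found once. The 50% limit was not met by any of the 4 MER4A1 peaks of LV-MEIS1. Nor was it met by 4 of the 7 MamGypLTR3 peaks or the 3 HERVIP10FH-int peaks of HOXB13ko-LV-MEIS1. The latter were nearest the ribosomal gene RNA28SN5, where the background reached 33.2 to 33.9 and fold enrichment was 2.23 to 2.37, and they were the lowest members of the list.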

How the data were processed

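MEIS1 ChIP-seq of LV-MEIS1 and HOXB13ko-LV-MEIS1 cells was analysed from 1 peak list and 1 annotation per line. The authors trimmed reads (Trimmomatic 0.38), removed duplicates (Picard 2.18.10), aligned with default Bowtie2 to hg38, pooled the immunoprecipitations, called peaks against 1 input (MACS2 2.1.2, q of 0.01, extension of 200 bp) and annotated them (HOMER 4.9.1). The deposited signal is the pileup at the summit, and the deposited fold enrichment is its ratio to the local background. The deposited p-values and q-values are given as −log10 values of a Poisson test. Other deposited values are distances to start sites and labels.

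Depth was 202428594, 105763683 and 39102495 tags, so the background of every peak rests on fewer tags than its pileup. Words were searched on both strands of hg38 within 50 bp of summits and between 450 and 550 bp away. TGACA with TGACAG (which contains it), the HOX words ATAAA and TGATTTAT, the forkhead word TGTTTAC and a PBX-MEIS composite word were fixed with the design, and TGAGTCA and the 12-base words were chosen after seeing the data. A further fixed word is not reported here. Exact binomial tests used discordant peaks and the larger p of the 2 flanks. Peaks, not cultures, are their units. Shares have 95% Wilson intervals. Identity was the edit distance of a 101 bp window to the region within 150 bp of the other summit (edlib 1.3.9.post1), on either strand. The word test, overlap and 50-base counter were tested on simulated data. Python 3.11.15, scipy 1.17.1, pysam 0.24.0 and GENCODE release 44 were used. The members and lists were chosen with earlier results of these data known.

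Named elements had 5 or more peaks, a place in both lists or an entry in the fixed list. Named genes were nearest to the 10 members with the highest fold enrichment, to places in both lists or to a summit within 1 kb of a start site, or were on the fixed list. Genes beside printed sequences, KLK2, FAAH, ZNF561-AS1, SMYD3, MIR3175 and RNA28SN5, and the elements MER68, LTR57-int, LOR1-int, MER51-int, MER66-int, MER4A1 and HERVIP10FH-int were named after their values were seen.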

Additional observations from a re-analysis of the deposited data

How the results depend on the processing

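No paired analysis was possible because each line has 1 list of pooled immunoprecipitations. Leaving out replicates was not possible for the same reason. Of 90 alternatives, 79 left a value within its interval, within 1.5 times a count or on the same side of the test. The alternatives that limit the sequence to stretches found once in hg38, and those that leave out 1 element group, were chosen after seeing the data.

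The LTR share of the HOXB13ko-LV-MEIS1 list was 14.5% with a −log10 q of at least 5 and 16.9% with a fold enrichment of at least 5. As a share of repeat peaks it was 21.7% in LV-MEIS1 and 31.7% in HOXB13ko-LV-MEIS1. Median fold enrichment in LV-MEIS1 was 6.70 with a fold enrichment of at least 5, where the limit itself removes low peaks. With 1 peak per element name, kept for its height, it was 6.95 in LV-MEIS1 and 8.04 in HOXB13ko-LV-MEIS1. The median distance to a start site was 20336 bp and 19621 bp when distances were limited to 100 kb. In HOXB13ko-LV-MEIS1 the summit share of TGACAG lay below the flanks by −0.95 percentage points (exact p = 0.832), against 6.46 points above them for TGACA. Without LTR10 the TGACA difference was 9.54 points (exact p = 0.0385), without LTR13 3.57 points (exact p = 0.738), with 1 peak per element name 11.0 points (exact p = 0.845) and with windows of 100 bp to either side 0.57 points (exact p = 0.721), and the cause was not tested. These differences are from the mean of both flanks, whereas each exact p is that of the single flank with the larger p. The precision of all values is limited by 1 list per line and by the depth of the input.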
